A study of Mus musculus with 9 samples.

Results

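The 34 genes described here are mouse genes by which microglia, the resident macrophages of the brain, are recognised, and they were taken by symbol from the 37816 genes of a bulk RNA-seq count table of the cerebellum. All 34 had a row in the table, and all 34 passed the filter on low counts. They fall into 6 groups by role: 10 receptors of resting microglia, 4 transcription factors, the 3 chains of C1q, 7 genes of Trem2 and general leukocyte signaling, 6 lysosomal, secreted or cytoskeletal genes, and 4 genes associated with activation.

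The table holds 9 libraries, 3 in each of the groups 15Q, 84Q and 84Q+IGF1, from mice killed at 18 months of age. All mice were on a C57BL/6 background and carried the human ATXN3 gene on a yeast artificial chromosome, a transgene that keeps the regulatory sequence of the human gene and is therefore not limited to one cell type. Its CAG tract, which encodes the polyglutamine stretch that causes spinocerebellar ataxia type 3, had 15 repeats in 15Q mice and 84 in 84Q and 84Q+IGF1 mice. The 84Q+IGF1 mice received 50 mg/kg of IGF1 intraperitoneally each week from 9 months of age. The other mice are called untreated in the labels, whereas the methods of the study give PBS injections. No group without the transgene was analysed here, so each comparison is between transgenic mice.

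Microglia depend on the receptor CSF1R for survival, and the factors PU.1 (encoded by Spi1), IRF8 and SALL1 set and hold their identity. In the healthy brain they express receptors that sense nucleotides, fractalkine and other signals, and they are the main source of the complement component C1q. Around dying neurons or myelin debris, signaling through TREM2 and its adaptor TYROBP is known to lower the genes of the resting state and to raise Cst7, Itgax, Clec7a, Axl and others.

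The libraries held from 17482654 to 58269196 counts, so that 3 counts, the floor below which no level was compared, corresponded to between 0.0515 and 0.172 CPM (the count as a share of all counts in a library, adjusted here by TMM factors for composition). The lowest count of any of the 34 genes in any library was 8, and 30 genes had at least 30 counts in every library. The spread between replicates exceeded counting noise, at a mean chi-square per gene of 9.58 to 16.1 between libraries of one group. Whether the libraries of a group came from separate litters is not given, so p-values measure the spread between these samples. In bulk RNA, fewer microglia and less RNA per microglial cell cannot be told apart. Other features of the libraries bear on what follows. Xist stood between 719 and 949 CPM in 4 libraries (15Q replicates 2 and 3, 84Q replicate 1 and 84Q+IGF1 replicate 2) and at most at 1.15 CPM in the other 5, in which 4 Y-linked genes summed to between 185 and 214 CPM. In the 4 libraries with high Xist the Y-linked genes summed to at most 1.27 CPM. By these genes the 4 libraries read as female and the 5 as male, unevenly spread with 2 female libraries in 15Q and 1 in each other group. The labels used here do not give sex. Choroid plexus genes summed to between 491 and 1054 CPM in 15Q replicates 1 and 3 and 84Q replicate 2, and to between 28.8 and 69.1 CPM in the other 6 libraries. Intestinal genes summed to between 23.0 and 36.8 CPM in the 15Q libraries and to between 4.04 and 5.93 CPM in the libraries with 84 repeats.

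The upstream sequences of 3 genes are shown because they belong to members whose levels are described in detail: Cst7 and Itgax varied most between libraries, and Trem2 encodes the receptor of the activation program. Each is the 250 bases before the RefSeq transcription start in GRCm38.p6, 5′ to 3′ on the strand of the gene, and capitals mark GAGGAAG, a form of the PU.1 motif, or GGAAGTG, a more general ETS motif, on either strand. Cst7 lies at chr2:150570165-150570414 (plus strand), Itgax at chr7:128129300-128129549 (plus strand) and Trem2 at chr17:48346151-48346400 (plus strand).
Cst7: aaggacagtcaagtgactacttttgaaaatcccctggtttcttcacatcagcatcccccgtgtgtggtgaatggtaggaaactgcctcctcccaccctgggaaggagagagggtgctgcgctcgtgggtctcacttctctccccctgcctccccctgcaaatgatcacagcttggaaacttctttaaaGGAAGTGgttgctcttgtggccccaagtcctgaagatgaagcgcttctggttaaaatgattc
Itgax: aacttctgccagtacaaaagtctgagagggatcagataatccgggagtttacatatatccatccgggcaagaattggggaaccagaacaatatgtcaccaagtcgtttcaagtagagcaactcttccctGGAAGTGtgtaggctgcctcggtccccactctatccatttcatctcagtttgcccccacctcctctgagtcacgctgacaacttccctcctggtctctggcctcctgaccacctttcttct
Trem2: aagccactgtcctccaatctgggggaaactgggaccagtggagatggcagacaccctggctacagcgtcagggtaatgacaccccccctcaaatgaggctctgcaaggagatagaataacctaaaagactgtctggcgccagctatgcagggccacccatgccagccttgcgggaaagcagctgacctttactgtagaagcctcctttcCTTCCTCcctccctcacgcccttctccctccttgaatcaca

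Of the 34 genes, 27 had an upstream sequence in the RefSeq table. GAGGAAG stood in 8 of the 27 (29.6%), compared with 12% of all genes with such a sequence, and GGAAGTG in 6 of 27 (22.2%), compared with 9.77%. The longer GAGGAAGT, which contains GAGGAAG and overlaps GGAAGTG, was found in 1 of 27 (3.70%), compared with 2.79% of all genes. The TATA box TATAAA was found in 5 of 27 (18.5%), compared with 14.3%. In Trem2 the nearest match lay 34 bases before the start, in Cst7 55 and in Itgax 114. These matches describe letters only, and the binding of a factor was not measured.

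Per length, the microglia genes spanned a wide range of levels. In TPM (transcript levels scaled to a common total, computed here from counts and exon length), the highest mean over the 9 libraries was that of Ctss, the lysosomal protease cathepsin S, at 144 ± 27.5 (SD, n = 9). The C1q chains followed with 115 ± 21.1 TPM for C1qa and 76.8 ± 12.6 for C1qb. The difference between Ctss and C1qa was about as large as their SDs. Lyz2 had 56.5 ± 22.6 TPM, Axl 49.1 ± 2.17, Laptm5 45.9 ± 5.09, C1qc 44.8 ± 8.32 and Csf1r 36.3 ± 4.72. At the lower end stood Itgam at 2.21 ± 0.381 TPM, Ptprc, the leukocyte antigen CD45, at 1.004 ± 0.282 and Runx1 at 0.673 ± 0.154. The length used is that of all annotated exons of a gene together. Ptprc (18313 bases) and Runx1 (12025 bases) were the longest of the microglia genes, which lowers their TPM. The order of the genes and the size of ratios between them depend on these lengths. The 3 chains, which assemble into one protein in equal numbers, kept near-constant proportions, with a TPM ratio of C1qa to C1qb of 1.498 ± 0.141 and of C1qa to C1qc of 2.57 ± 0.208 over the 9 libraries. The ratio of Tyrobp to Trem2, an adaptor shared with other receptors and one of its partners, was wider, at 4.46 ± 0.888.

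**Figure D1:**
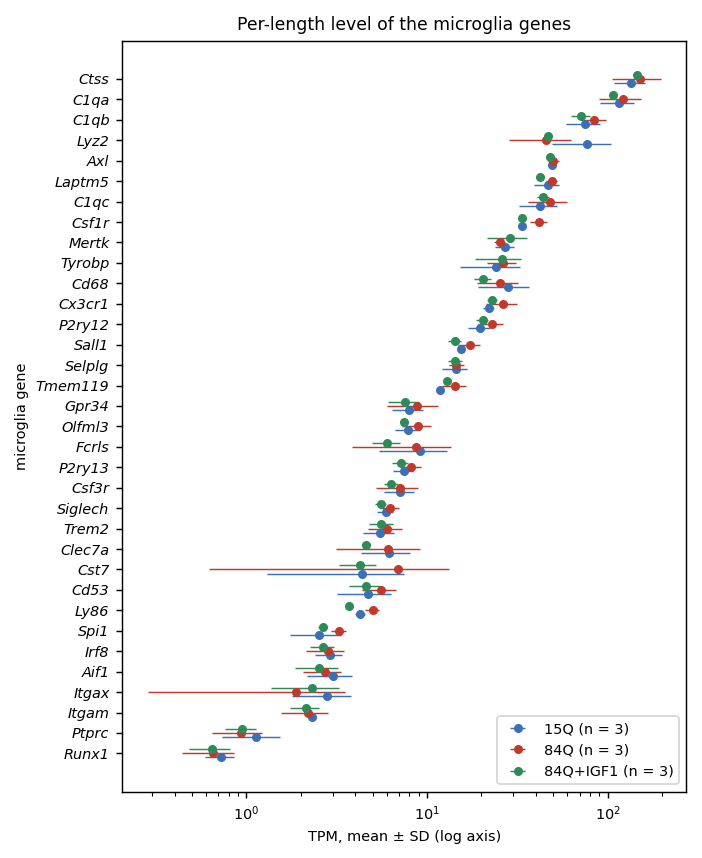
Per-length levels of the 34 microglia genes as mean ± SD of 3 libraries in each group, on a log axis in TPM, ordered by the mean over 9 libraries. Ctss and C1qa stand at the top and Ptprc and Runx1 at the bottom, and the bars are widest for Cst7 and Itgax.

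The comparison of 84Q with 15Q asked how the expanded repeat went with the levels of these genes. None of the 34 was called, where a call required an adjusted p under 0.1 and a change of at least 1.5-fold in the edgeR test. Across all 19353 genes tested, 2.14% were called, 0.238% higher and 1.90% lower. The median log2 fold change of the 34 was 0.15, compared with -0.00 over all genes, and 25 of 34 were positive (49.7% of all genes). Without 84Q replicate 1 the median was -0.01. At an unadjusted p under 0.05 there were 5, 4 higher and Lyz2 lower, compared with 19.4% of all genes, 9.04% higher and 10.4% lower. In 3 genes, Csf1r, Tmem119 and Ly86, all 84Q libraries lay above all 15Q libraries, as they did in 11.9% of all genes.

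Csf1r, the receptor for CSF1 and IL-34, stood at 47.5, 46.1 and 49.3 CPM in the 15Q libraries. It stood at 66.0, 64.0 and 54.2 CPM in 84Q, and at 49.6, 48.9 and 47.8 CPM in 84Q+IGF1. All 3 of the 84Q libraries lay above all of the others, and the 84Q+IGF1 values lay near those of 15Q. In 84Q the level was 1.29-fold that of 15Q, a log2 fold change of 0.37 ± 0.07 (SE) with an adjusted p of 0.0271, and Csf1r was the only one of the 34 to pass the p threshold there, though its change was under 1.5-fold. With any fold allowed, 4.80% of all genes passed that threshold, 1.54% higher. Without 15Q replicate 2 its adjusted p was 0.141. Of its exons, 15.1% overlap Hmgxb3 on the opposite strand, whose level was 44.8 ± 1.44 CPM in 15Q and 47.0 ± 1.79 in 84Q, and the strand setting of the counting is not given.

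Tmem119, a surface protein that separates microglia from other macrophages, stood at 6.73, 6.51 and 6.93 CPM in 15Q, at 8.11, 7.30 and 9.92 in 84Q and at 7.34, 7.87 and 7.23 in 84Q+IGF1. Both groups with 84 repeats lay above 15Q without overlap, as they did in 5.93% of all genes. The log2 difference of 84Q from 15Q was 0.32 ± 0.12 with an adjusted p of 0.186, so the change did not pass the test. Cx3cr1, the fractalkine receptor, stood at 23.3, 24.0 and 26.2 CPM in 15Q, at 33.5, 33.6 and 23.8 in 84Q and at 28.0, 26.5 and 23.6 in 84Q+IGF1. Its 84Q replicate 3 lay inside the range of 15Q, and the adjusted p was 0.196. P2ry12, the ADP receptor by which resting processes find injury, stood at 10.9, 12.2 and 13.96 CPM in 15Q, at 15.2, 16.9 and 12.3 in 84Q and at 13.9, 11.8 and 13.4 in 84Q+IGF1. The groups overlapped, and its log2 difference of 0.26 ± 0.13 had an adjusted p of 0.296. Of the other receptors, P2ry13, Gpr34, Siglech, Selplg, Fcrls and Mertk had log2 differences between -0.05 and 0.19 and did not pass the test.

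None of the 4 transcription factors passed the test in any comparison. Sall1, which keeps microglia distinct from other macrophages, stood at 19.6, 19.9 and 20.4 CPM in 15Q, at 23.2, 26.2 and 20.1 in 84Q and at 17.4, 19.1 and 19.7 in 84Q+IGF1. The third 84Q library lay within the 15Q range, and the log2 difference of 84Q from 15Q was 0.21 ± 0.10 (adjusted p = 0.253). Spi1 stood at 1.41, 1.37 and 2.27 CPM in 15Q, at 2.21, 2.46 and 2.05 in 84Q and at 1.89, 1.66 and 1.82 in 84Q+IGF1, and 15Q overlapped with both other groups. Irf8 stood at 4.20, 5.11 and 5.81 CPM in 15Q, at 6.28, 4.97 and 3.93 in 84Q and at 4.68, 4.03 and 5.38 in 84Q+IGF1, with a log2 difference of 0.01 ± 0.19 between 84Q and 15Q. Runx1 had a log2 difference of -0.11 ± 0.27.

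**Figure D2:**
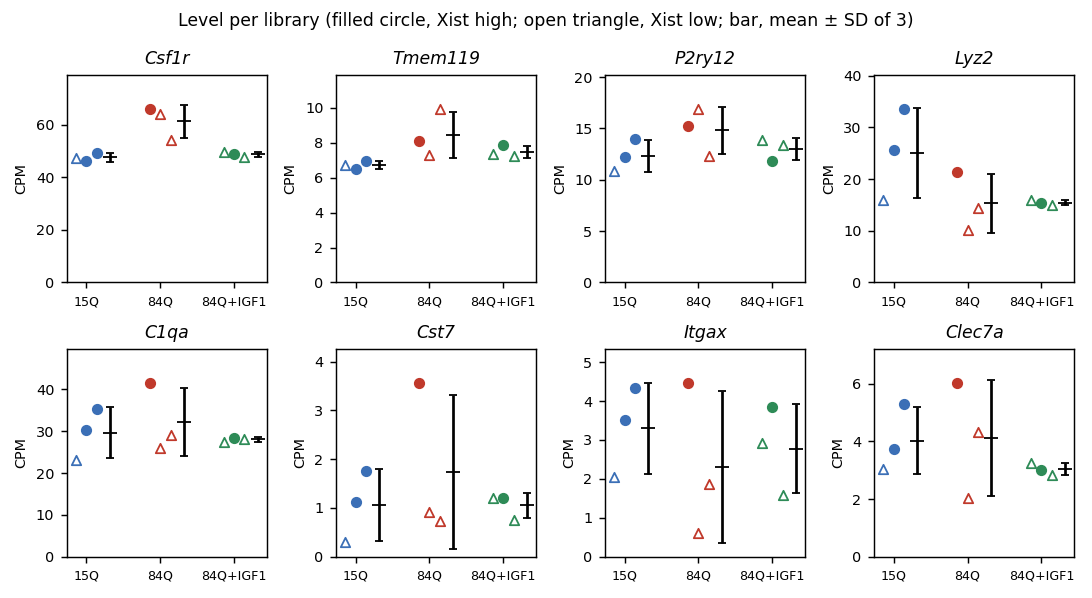
Levels in CPM of 8 microglia genes in each library of the 3 groups, with filled circles for the 4 libraries with high Xist, open triangles for the 5 others and a bar for mean ± SD of 3. Csf1r in 84Q lies above both other groups, Lyz2 is highest in 2 of the 15Q libraries, and the high-Xist library of 84Q is the highest for Cst7, Itgax, Clec7a and C1qa.

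Among the genes of complement and of TREM2 signaling, no member passed the test in any comparison. C1qa stood at 23.2, 30.3 and 35.4 CPM in 15Q, at 41.4, 26.0 and 29.1 in 84Q and at 27.5, 28.5 and 28.2 in 84Q+IGF1. C1qb stood at 16.4, 19.5 and 24.3 CPM in 15Q, at 27.3, 20.3 and 22.7 in 84Q and at 19.8, 21.7 and 16.8 in 84Q+IGF1. C1qc stood at 16.2, 19.2 and 25.2 CPM in 15Q, at 29.2, 17.8 and 23.8 in 84Q and at 20.9, 23.0 and 19.9 in 84Q+IGF1. For each chain 84Q replicate 1 was the highest library and 15Q replicate 1 the lowest, and the groups overlapped.

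Trem2 stood at 5.58, 6.55 and 8.02 CPM in 15Q, at 9.18, 6.02 and 7.41 in 84Q and at 6.22, 8.06 and 6.55 in 84Q+IGF1. Tyrobp stood at 2.30, 4.72 and 4.86 CPM in 15Q, at 5.38, 3.82 and 4.22 in 84Q and at 4.89, 5.27 and 2.88 in 84Q+IGF1. Neither separated the groups. Itgam, the integrin chain CD11b, stood at 2.83, 2.81 and 2.99 CPM in 15Q, at 3.66, 2.64 and 2.11 in 84Q and at 2.19, 2.94 and 2.91 in 84Q+IGF1. Its counts are uncertain, since 68.7% of its exons overlap the read-through gene Gm49368 on the same strand. For Csf3r, 23.1% of the 31-base words are shared with other genes, mostly AC105061.2. Laptm5, a lysosomal membrane protein of blood cells, stood at 42.8, 37.5 and 50.2 CPM in 15Q, at 50.8, 46.0 and 45.1 in 84Q and at 41.6, 41.4 and 37.6 in 84Q+IGF1, and only the last of these groups lay wholly below 84Q.

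Of the lysosomal, secreted and cytoskeletal genes, Lyz2, the lysozyme of macrophages, was lower in the groups with 84 repeats. It stood at 16.0, 25.6 and 33.5 CPM in 15Q, at 21.4, 10.2 and 14.4 in 84Q and at 16.0, 15.3 and 15.0 in 84Q+IGF1. The values of 15Q replicates 2 and 3 lay above every other library, while 15Q replicate 1 lay within the range of the other groups. Its log2 fold change was -0.71 ± 0.26 in each comparison with 15Q, with adjusted p-values of 0.173 for 84Q and 0.191 for 84Q+IGF1. With both groups pooled against 15Q, Lyz2 was the only one of the 34 to be called (log2 fold change -0.71 ± 0.21, adjusted p = 0.0720), where 3.47% of all genes were called, 0.315% higher and 3.16% lower. At an unadjusted p under 0.05 it was again the only one, compared with 22.7% of all genes and 12% lower, and 23 of 34 genes were positive (49.2% of all genes), with a median of 0.05. The call held under 7 of 16 alternatives and was lost with DESeq2 (adjusted p = 0.108), the replicate block (adjusted p = 0.125), robust shrinkage and Xist as a covariate. Without 15Q replicate 3 the log2 fold change was -0.43 with an adjusted p of 0.387, and without 15Q replicate 2 the adjusted p was 0.200. The adjusted p was also above 0.1 without 84Q replicate 3 (0.125), 84Q+IGF1 replicate 1 (0.112) or 84Q+IGF1 replicate 3 (0.101). Among the libraries with high Xist, Lyz2 stood at 25.6 and 33.5 CPM in 15Q, at 21.4 in 84Q and at 15.3 in 84Q+IGF1. Among the others it stood at 16.0 in 15Q, at 10.2 and 14.4 in 84Q, and at 16.0 and 15.0 in 84Q+IGF1. Of the 31-base words of Lyz2, 32.8% are shared with its paralog Lyz1, so reads could be divided between them, and Lyz1 stood at most at 1.03 CPM.

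Cd68, a lysosomal glycoprotein of phagocytes, stood at 5.61, 10.1 and 10.3 CPM in 15Q, at 10.4, 7.25 and 6.67 in 84Q and at 7.42, 5.76 and 6.20 in 84Q+IGF1, without separation. Aif1, the actin-binding protein IBA1, stood at 0.781, 1.34 and 1.30 CPM in 15Q, at 1.28, 1.10 and 0.798 in 84Q and at 0.686, 1.13 and 1.10 in 84Q+IGF1. Ly86, a partner of a Toll-like receptor homolog, stood at 3.57, 3.92 and 3.97 CPM in 15Q, at 5.07, 4.48 and 4.33 in 84Q and at 3.26, 3.46 and 3.36 in 84Q+IGF1. The ranges of Ly86 in the 3 groups did not overlap, with 84Q the highest and 84Q+IGF1 the lowest, but no comparison passed the test.

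The genes associated with activation varied widely between libraries of one group, apart from Axl. Cst7, an inhibitor of lysosomal proteases, stood at 0.297, 1.12 and 1.76 CPM in 15Q, at 3.55, 0.923 and 0.741 in 84Q and at 1.20, 1.20 and 0.754 in 84Q+IGF1, an 11.9-fold range. Its log2 difference between 84Q and 15Q was 0.70 ± 0.58, and it was -0.42 without 84Q replicate 1. Itgax, the integrin chain CD11c, stood at 2.04, 3.50 and 4.34 CPM in 15Q, at 4.45, 0.615 and 1.88 in 84Q and at 2.92, 3.84 and 1.58 in 84Q+IGF1, a 7.23-fold range. Clec7a, the beta-glucan receptor dectin-1, stood at 3.05, 3.72 and 5.30 CPM in 15Q, at 6.00, 2.02 and 4.33 in 84Q and at 3.26, 3.01 and 2.84 in 84Q+IGF1. Axl, a receptor for phosphatidylserine bridged by GAS6 that other brain cells also express, stood at 63.5, 58.8 and 60.5 CPM in 15Q, at 60.2, 62.9 and 69.9 in 84Q and at 61.4, 60.6 and 60.9 in 84Q+IGF1. Its 1.19-fold range was the narrowest of the 34. Of Itgax, 10.7% of the 31-base words are shared with Itgad.

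**Figure D3:**
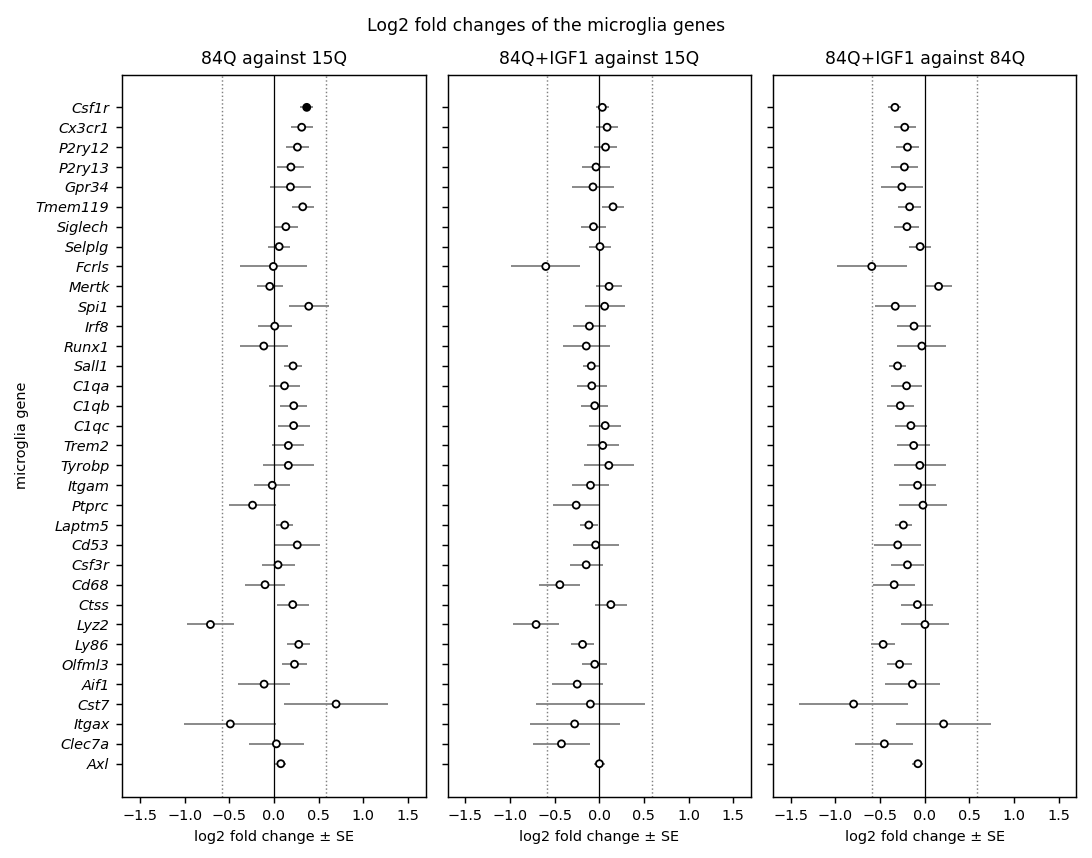
Log2 fold changes (± SE) of the 34 microglia genes in the 3 comparisons between groups, with a filled point for an adjusted p under 0.1 and dotted lines at 1.5-fold. Csf1r in 84Q against 15Q is the one filled point, Lyz2 lies at -0.71 in both comparisons with 15Q, and 31 of 34 points lie below 0 in 84Q+IGF1 against 84Q.

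The comparison of 84Q+IGF1 with 15Q asked whether treated mice with 84 repeats differed from mice with 15. None of the 34 was called (2.25% of all genes were, 0.186% higher and 2.06% lower), the median log2 fold change was -0.07 and 12 of 34 were positive (48.9% of all genes). All 84Q+IGF1 libraries lay above 15Q for Tmem119 (11.7% of all genes) and below it for Ly86 (13%). Lyz2 was the only one with an unadjusted p under 0.05, where 17.7% of all genes reached that level and 10.4% did so lower. The standard errors of the 34 genes had a median of 0.18 on the log2 scale in this comparison and ranged from 0.06 for Axl to 0.61 for Cst7.

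The comparison of 84Q+IGF1 with 84Q asked what IGF1 changed in mice with 84 repeats. In edgeR none of the 34 was called, and none of the 19353 genes was (0% called, 905 genes or 4.68% at an unadjusted p under 0.05, and 6 genes called by DESeq2, none of them one of the 34). Of the 34, 31 had a negative log2 fold change, with a median of -0.20 (48.7% of all genes were positive), and 4 had an unadjusted p under 0.05, all lower in 84Q+IGF1 (2.84% of all genes). These were Csf1r (-0.33 ± 0.07, unadjusted p = 0.000664), Ly86 (-0.47 ± 0.13), Sall1 (-0.30 ± 0.10) and Laptm5 (-0.24 ± 0.10), each with an adjusted p of 0.969. For Csf1r the adjusted p was 0.00454 without the filter on low counts. Together with Spi1 these 4 were the genes whose 84Q+IGF1 libraries all lay below the 84Q libraries, a pattern that 4.50% of all genes showed. This comparison and that of 84Q with 15Q share the 84Q libraries, so the higher values in the one and the lower values in the other rest on the same 3 samples. Without 84Q replicate 1 the median log2 fold change was -0.01 here as well. In the same comparison all 8 oligodendrocyte genes were negative, with a median of -0.28, and 7 had an unadjusted p under 0.05, and their part in the values of the 34 genes was not tested. The Purkinje, granule cell and astrocyte lists had medians of 0.02, 0.02 and -0.02 and no gene at that level. The choroid plexus list had a median of -3.20, with a summed level of 44.0, 1054 and 29.2 CPM in 84Q and of 28.8, 30.99 and 69.1 CPM in 84Q+IGF1, so that its direction rests on 84Q replicate 2. Without that library the median of the 34 genes was -0.26, and with the choroid plexus level as a covariate it was -0.20.

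The libraries differed in a way that cut across the groups. 84Q replicate 1 was the highest of the 9 libraries in 22 of the 34 genes, whereas it was the highest in 8.42% of all genes tested. Oligodendrocyte genes also summed highest there, at 5074 CPM against at most 4388 elsewhere. The genes of disease-associated microglia did so too, at 3390 CPM against at most 3186. The astrocyte, Purkinje and granule cell sums were highest in other libraries. 15Q replicate 1 was the lowest in 12 (9.46% of all genes) and 15Q replicate 2 in 7 (8.67%). Summed over the 34 genes, the level was 436, 472 and 558 CPM in 15Q, 611, 495 and 498 in 84Q and 479, 492 and 457 in 84Q+IGF1. The means were 489 ± 62.3, 535 ± 66.0 and 476 ± 17.6 CPM (SD, n = 3), which overlapped. In 27 of the 34 genes the highest library was under 2 times the lowest, and in 7 it was at least 2 times the lowest: Tyrobp, Ptprc, Fcrls, Lyz2, Cst7, Itgax and Clec7a.

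**Figure D4:**
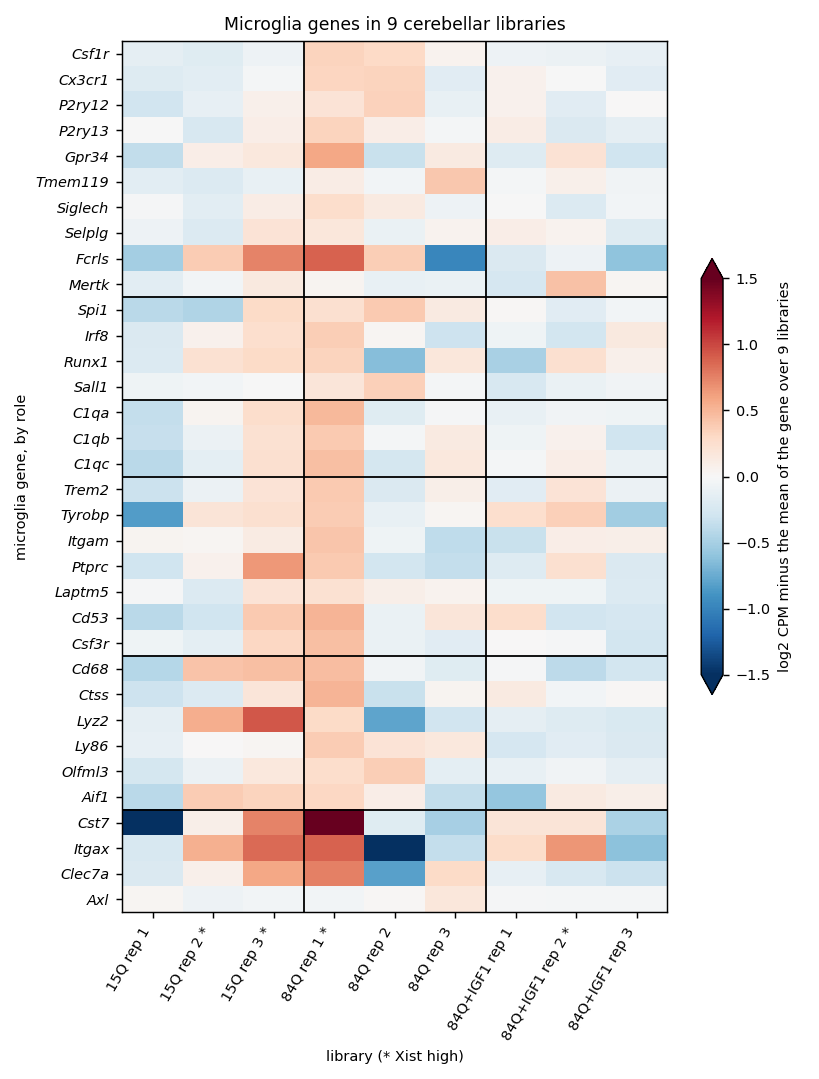
Log2 CPM of each microglia gene minus its mean over 9 libraries, by role, with lines between groups of libraries and between roles, and an asterisk at the 4 libraries with high Xist. The colour scale ends at 1.5 in either direction, values beyond it (Cst7 in 15Q replicate 1 and 84Q replicate 1, Itgax in 84Q replicate 2) share its end colours, and 84Q replicate 1 is the highest library in 22 of 34 rows.

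A term for the 4 libraries with high Xist was set beside the groups, which was done after the data were seen. Its log2 difference was positive in 33 of 34 genes (49.2% of all genes). At an unadjusted p under 0.05 there were 17 of 34, all higher, compared with 8.78% of all genes and 4.89% higher. None of the 34 passed an adjusted p of 0.1, and 8 genes of all tested (0.0413%) were called. The log2 difference was 1.51 ± 0.34 for Cst7, 1.19 ± 0.29 for Itgax, 0.82 ± 0.25 for Fcrls, 0.63 ± 0.18 for Tyrobp and 0.62 ± 0.15 for Ptprc. For the C1q chains it was between 0.34 and 0.38, and for the X-linked Gpr34 it was 0.54 ± 0.13. All 10 receptors of resting microglia were positive, and 3 of them (Fcrls, Gpr34 and Mertk, the last at 0.31 ± 0.09) had an unadjusted p under 0.05. The other 7 lay between 0.01 for Tmem119 and 0.13 for Selplg, and the 4 transcription factors between 0.03 for Sall1 and 0.46 for Runx1. The only negative value was that of Axl, at -0.08 ± 0.05. Of the other lists, 19 of 21 genes of disease-associated microglia were positive (11 at an unadjusted p under 0.05), 5 of 7 of complement and bridging ligands, 8 of 8 of border macrophages (median 0.51), 3 of 3 of monocytes, 4 of 4 of T, NK and B cells and 7 of 8 of oligodendrocytes (median 0.13). The other resting microglia genes (9 of 14 positive, median 0.04) and the CSF1R and TGF-beta partners (4 of 7, median 0.03) were near even. In ITAM and Fc receptor signaling 11 of 12 were positive (median 0.24), in innate sensing and cytokines 7 of 10, in intestine 4 of 5 and in red blood cells 3 of 5. The choroid plexus and neutrophil lists lay on the opposite side, with medians of -1.69 and -1.005. Astrocyte (2 of 8 positive), Purkinje (2 of 7), granule cell (2 of 8) and blood vessel (2 of 7) genes were also mostly negative, with medians between -0.09 and -0.03. With the choroid plexus level as a covariate, 32 of the 34 genes were higher in the high-Xist libraries, 16 had an unadjusted p under 0.05 (12.7% of all genes), the median log2 difference was 0.34, compared with 0.29 without it, and 2 of the 34 passed an adjusted p of 0.1. The number of genes with an unadjusted p under 0.05 was 10 without 15Q replicate 1 (5.36% of all genes) and 11 without 84Q replicate 1 (5.88%), and without the latter the median was 0.17. Without 84Q+IGF1 replicate 2 the median was 0.40. Within 84Q+IGF1 the 34 genes summed to 492 CPM in that high-Xist library and to 479 and 457 CPM in the others. There P2ry12 was lower in it (11.8 against 13.9 and 13.4 CPM). C1qa was near the others (28.5 against 27.5 and 28.2 CPM), and Trem2 was higher (8.06 against 6.22 and 6.55 CPM).

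The surrounding genes of the same biology were read from 6 lists with 75 genes, of which 71 could be tested. None of the 71 was called higher in any comparison. In 84Q against 15Q, 3 were called lower (C3, Igf1 and H2-Ab1, where 1.90% of all genes were), in 84Q+IGF1 against 15Q 5 (C3, Ccl6, Cd74, H2-Aa and H2-Ab1, where 2.06% were), in 84Q+IGF1 against 84Q 0, and in both groups together against 15Q 6 (those of the other comparisons, where 3.16% were). C3, the central complement component, stood at 10.9, 22.9 and 22.3 CPM in 15Q, at 6.93, 3.82 and 3.99 in 84Q and at 4.16, 5.99 and 5.24 in 84Q+IGF1. All libraries with 84 repeats lay below all of 15Q, with a log2 fold change of -1.91 ± 0.29 in 84Q (adjusted p = 0.00571) and of -1.87 ± 0.29 in 84Q+IGF1 (adjusted p = 0.00492), and C3 was called under every alternative tried. Intestinal genes also summed higher in the 15Q libraries, at 23.0, 34.7 and 36.8 CPM, against at most 5.93 CPM in the others. The part of intestinal RNA or of cells other than microglia in the levels of C3 and the other called genes was not tested. Igf1, the growth factor that microglia of white matter secrete, stood at 8.36, 10.9 and 10.6 CPM in 15Q, at 7.42, 5.85 and 6.10 in 84Q and at 6.48, 6.81 and 6.82 in 84Q+IGF1, with a log2 fold change of -0.62 ± 0.13 in 84Q (adjusted p = 0.0405). This call was lost without any one of 15Q replicates 2 or 3 and 84Q replicates 2 or 3, with the replicate block and with Xist as a covariate, and the highest adjusted p of Igf1 under the alternatives tried was 0.175. The call of H2-Ab1 in 84Q against 15Q (log2 fold change -1.18, adjusted p = 0.0859) was lost under 9 of 17 alternatives, among them without 15Q replicate 2 or 3, any one of the 84Q libraries or 84Q+IGF1 replicate 2, and its highest adjusted p was 0.315. H2-Ab1, H2-Aa and Cd74 belong to MHC class II antigen presentation, and the chemokine gene Ccl6 is expressed by myeloid cells. Their log2 fold changes in 84Q+IGF1 against 15Q were -1.25, -1.96, -1.52 and -1.72, and each of the 4 calls was lost without 84Q+IGF1 replicate 1. Under the alternatives tried, their highest adjusted p-values were 0.450, 0.258, 0.233 and 0.161. Lpcat2, an enzyme of phospholipid remodeling, passed the p threshold in 84Q against 15Q (adjusted p = 0.0875) with a log2 fold change of 0.58, just under 1.5-fold, and was 1 of 2 genes past that threshold in the list of other resting microglia genes. It was called higher under 5 of 17 alternatives, namely DESeq2, DESeq2 size factors in edgeR, the choroid plexus level as a covariate, and without 84Q+IGF1 replicate 1 or 2.

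The lists without a called gene in any comparison were those of CSF1R and TGF-beta partners (0 of 7), other resting microglia genes (0 of 14), ITAM and Fc receptor signaling (0 of 12) and innate sensing and cytokines (0 of 10). The most abundant gene in 15Q was, in the order of these lists, Cx3cl1, Sparc, Lyn and Myd88, and Cx3cl1, the ligand of Cx3cr1, stood at 85.6 ± 9.71 CPM in 15Q and 87.5 ± 5.31 in 84Q.

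Genes of the macrophages at the borders of the brain, which share Csf1r, Lyz2 and other genes with microglia, stood lower in libraries with 84 repeats. Their summed level was 15.4, 19.7 and 29.2 CPM in 15Q, 14.5, 11.7 and 8.66 in 84Q and 9.65, 11.0 and 9.53 in 84Q+IGF1. Of the 8 tested, 1 was called lower in 84Q against 15Q (Cbr2), 2 in 84Q+IGF1 against 15Q (Cbr2 and Cd163), 0 in 84Q+IGF1 against 84Q and 6 in both groups together against 15Q, among them Mrc1, Cd163 and F13a1. Of all genes, 1.90%, 2.06%, 0% and 3.16% were called lower in these comparisons. The count of 6 was 2 without 15Q replicate 2 and 1 without 15Q replicate 3, and it was 3 with the replicate block, 2 with Xist as a covariate and 1 with the choroid plexus level as a covariate. Cbr2 stood at 0.632, 1.02 and 1.30 CPM in 15Q, at 0.448, 0.176 and 0.342 in 84Q and at 0.214, 0.339 and 0.206 in 84Q+IGF1. The part of these cells in the levels of Lyz2 was not tested.

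**Figure D5:**
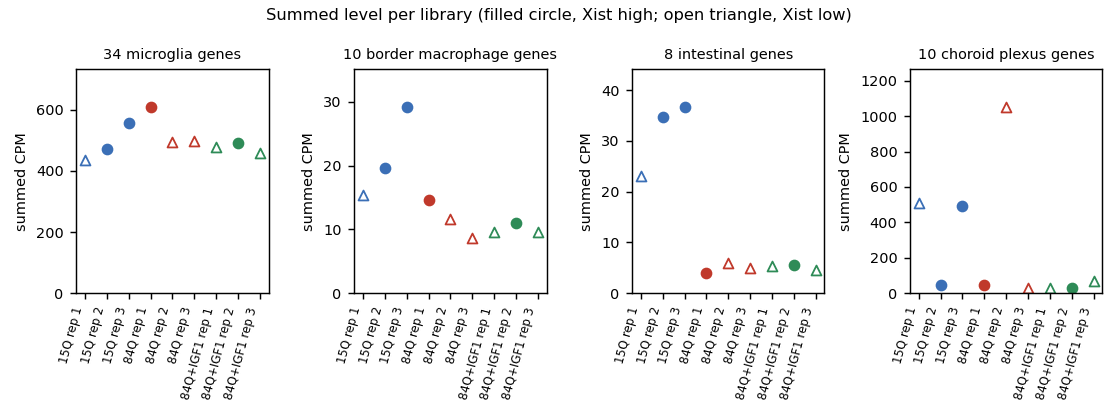
Summed level in CPM in each library of the 34 microglia genes and of lists of border macrophage, intestinal and choroid plexus genes, with filled circles for high Xist and open triangles for low Xist. The microglia sum is highest in 84Q replicate 1 at 611 CPM, the border macrophage and intestinal sums are higher in 15Q, and the choroid plexus sum is high in 3 libraries.

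Markers of blood cells were low or uneven. Neutrophil genes summed to 16.1 CPM in 84Q replicate 3 and to between 0.828 and 6.21 in the other libraries, and genes of T, NK and B cells summed to 25.7 CPM in 15Q replicate 3, mostly Igkc, and to at most 3.71 elsewhere. Of 3 monocyte genes tested, Ccr2 was called lower in 84Q+IGF1 against 15Q and in both groups together against 15Q. All 5 intestinal genes tested, of which Muc13, Fabp1 and Lgals4 were the most abundant in 15Q, were called lower in each comparison with 15Q, but the calls of Vil1 in 84Q (adjusted p = 0.0392) and in 84Q+IGF1 (adjusted p = 0.0327) were lost without 15Q replicate 2 or 3, and the latter also with the choroid plexus level as a covariate. The highest adjusted p of Vil1 was 0.161 and 0.166 there. Igkc and the choroid plexus gene Calml4 were called lower in both groups together against 15Q, and without 15Q replicate 3 neither was. The astrocyte, oligodendrocyte, Purkinje, granule cell and blood vessel lists, which describe the bulk of the tissue, held no called gene. In 84Q against 15Q the oligodendrocyte list had a median log2 fold change of 0.19, 5 of 8 positive, and Olig1 passed the p threshold (0.52, adjusted p = 0.0297) at under 1.5-fold.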

How the data were processed

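RNA from the cerebellum of 9 mice was sequenced in paired-end reads of 150 bases after strand-specific library preparation. The authors used Trimmomatic 0.36 for trimming, HISAT2 2.2.0 for alignment to GRCm38.p6 and featureCounts for counting, and deposited unnormalized counts per gene. The annotation and strand setting of the counting are not given in the sources used here. Counts were tested here in edgeR 4.0.16 (R 4.3.3, limma 3.58.1) with TMM, filterByExpr and a quasi-likelihood fit to all 9 libraries. P-values are two-sided and Benjamini-Hochberg adjusted over 19353 genes, and a call required an adjusted p under 0.1 and at least 1.5-fold. A separate fit compared 15Q with the 6 libraries of both other groups. SEs were derived from the F statistic. CPM used TMM-scaled totals, and TPM used exon lengths of GENCODE vM21. The steps were tested on simulated data. Alternatives included DESeq2 1.42.0, other filters, covariates and thresholds, and each library left out.

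Values are given for members called or at an unadjusted p under 0.05 in any comparison and for a fixed set of members. Of other lists, up to 3 called genes were named, otherwise the most abundant. H2-Aa, Vil1, Olig1, Lpcat2, Hmgxb3, Gm49368, Lyz1 and Xist were named after their values were seen. The members and lists were chosen with earlier results of these data known. Lists of other cell types, read as counts and sums, covered border macrophages, monocytes, neutrophils, lymphocytes, red blood cells, intestine, choroid plexus, astrocytes, oligodendrocytes, Purkinje and granule cells and vessels. Red blood cell genes summed to 211 CPM in 15Q replicate 2 and to between 22.9 and 80.9 elsewhere.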

Additional observations from a re-analysis of the deposited data

Results flagged for a closer look

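Among the 6 libraries with 84 repeats, of 84Q and 84Q+IGF1, 7 of the 34 genes had 1 library far above the other 5 by Dixon's ratio at its 95% critical value. Chance alone flags about 1 in 20 sets of independent, normally distributed values. These libraries come from 84Q and 84Q+IGF1, and the genes are not independent, since 84Q replicate 1 was the highest library in 22 of 34. The share over all genes was not computed, so the count of 7 is not read as an excess. In 84Q replicate 1 these were C1qa at 41.4 CPM, Cd68 at 10.4 CPM, Csf3r at 8.38 CPM and Cst7 at 3.55 CPM. In 84Q replicate 3 they were Tmem119 at 9.92 CPM and Axl at 69.9 CPM. In 84Q+IGF1 replicate 2 it was Mertk, a phagocytic receptor, at 39.4 CPM.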

How the results depend on the processing

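The number of the 34 genes called in 84Q against 15Q was 0 and became 1 without the filter on low counts (Lyz2), 1 with no fold threshold (Csf1r) and between 0 and 1 with 1 library left out. In 84Q+IGF1 against 15Q it was 0, 2 without the filter (Lyz2 and Fcrls) and between 0 and 1 with 1 library left out, and in 84Q+IGF1 against 84Q it was 0 under every alternative tried. With both groups together against 15Q the 1 call (Lyz2) became 0 with DESeq2 (adjusted p = 0.108), robust shrinkage, Xist as a covariate or an adjusted p under 0.05, and between 0 and 1 with 1 library left out. Replicate numbers are shared by the groups, and the deviations of same-numbered libraries from their group means had correlations between -0.309 and 0.079. With 3 libraries in a group, these do not show whether such libraries share a litter or a batch. Parts of the sample names recur between 84Q and 84Q+IGF1, and their meaning is not given. With the replicate block the 1 call became 0 (adjusted p = 0.125), and the calls of all genes fell from 414 to 242 in 84Q against 15Q and from 435 to 271 in 84Q+IGF1 against 15Q. No library correlated best with one of its own number, and the highest correlation was 0.295, between 84Q replicate 3 and 84Q+IGF1 replicate 1. With the block, border macrophage calls were 0, 1 and 3 in the 3 comparisons with 15Q.

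Border macrophage calls, recomputed after the data were seen, were 1, 2 and 6 in the comparisons of 84Q, 84Q+IGF1 and both with 15Q. With DESeq2 they were 2 and 5 in the first 2, without the filter 6 and 7, and with only the 2 groups fitted 4 in the second. With Xist as a covariate they were 0 in the first and 2 in the last, and with the choroid plexus level as a covariate 1 in the second and 1 in the last. At an adjusted p under 0.05 they were 0, 1 and 3. With 1 library left out they ranged from 0 to 2, from 0 to 6 and from 1 to 7. The summed level of the 34 genes was 823, 856 and 776 in TPM for 15Q, 84Q and 84Q+IGF1, and 394, 447 and 393 CPM without Lyz2 and the activation genes. The 17 genes at an unadjusted p under 0.05 for high Xist were between 10 and 16 with 1 library left out. For all genes, calls without the filter were 1025, 1284, 168 and 1235, against 414, 435, 0 and 672, and with Xist as a covariate 274 in 84Q against 15Q and 399 in both together. With the choroid plexus level as a covariate, 255 were called in 84Q+IGF1 against 15Q and 381 in both together. At an adjusted p under 0.05 there were 243, 281 and 446 in the comparisons with 15Q, and with no fold threshold 928, 711 and 1944. With 1 library left out, calls were as few as 184, 226 and 278 there and as many as 9 in 84Q+IGF1 against 84Q. The companion lists' 3 calls in 84Q against 15Q were 6 with DESeq2 or without the filter and 1 with the block or Xist as a covariate. At this depth all 34 genes lay above the floor of 3 counts in every library.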
